A study of Homo sapiens with 5 samples.

Results

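The loci described here are 9 bins of 500 kb that hold 10 genes for surface proteins of maturing myeloid cells. They are the bins of CD14, FPR1, CSF1R, CSF3R, ITGAM with ITGAX, ITGB2, CD38, CD68 and CD163, each taken with 5 bins on either side. The bins were listed by their hg19 start, and the position of each gene within its bin was not checked against an hg19 annotation. These are 9 of 6083 bins analysed on the autosomes and chromosome X, and of 5630 with enough coverage for compartments; the 9 windows cover 98 bins. The ITGB2 window holds 10 bins, because the chromosome ends 4 bins beyond the gene, and each other window holds 11.

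Contacts were measured by Hi-C after HindIII digestion in HL60, an established promyelocytic leukemia line, which was left untreated, treated with retinoic acid (ATRA) or treated with the phorbol ester TPA. The first agent is known to mature HL60 toward granulocytes and the second toward macrophages. The labels used here state no dose or time. The untreated and TPA matrices each pool 2 libraries and the ATRA matrix holds 1, so there is 1 matrix per condition, no spread between replicates and no test. Both treated matrices are compared with the same untreated matrix, and library and treatment cannot be told apart. The matrices held 10628045 untreated, 9632300 ATRA and 10423501 TPA contacts, and intervals in brackets are 95% limits of counting error only.

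Maturing granulocytes and macrophages place receptors on their surface that sense bacteria, growth factors and damaged tissue, and many of these genes are switched on by the transcription factor PU.1. In the nucleus, active gene-rich chromatin (compartment A) tends to meet other active chromatin, and inactive chromatin (compartment B) meets B. Such contacts describe the surroundings of a gene on the scale of a bin and do not measure its RNA.

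Promoter sequences are shown for 3 of the genes because HindIII, which sets the fragments that Hi-C can join, and PU.1 each read short words of DNA. The RefSeq promoter table (GRCh38.p14) held 10 entries for 8 of the 10 genes, and the 250 bases before each start were searched on both strands. HindIII cuts AAGCTT, which reads the same on both strands, and capitals otherwise mark GAGGAA, a core bound by PU.1 and related factors, or its reverse complement TTCCTC; none of the matches shown overlapped another kind. The 3 were picked after the matches were seen and are the second entry of CSF1R (chr5:150086555-150086804, minus strand), the second entry of CSF3R (chr1:36482914-36483163, minus strand) and ITGAM (chr16:31259725-31259974, plus strand), each 5′ to 3′.
CSF1R: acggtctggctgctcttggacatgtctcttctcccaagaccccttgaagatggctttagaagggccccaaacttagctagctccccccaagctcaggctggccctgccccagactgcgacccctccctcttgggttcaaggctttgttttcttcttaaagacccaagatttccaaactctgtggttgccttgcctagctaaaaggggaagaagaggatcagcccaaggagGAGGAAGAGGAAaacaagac
CSF3R: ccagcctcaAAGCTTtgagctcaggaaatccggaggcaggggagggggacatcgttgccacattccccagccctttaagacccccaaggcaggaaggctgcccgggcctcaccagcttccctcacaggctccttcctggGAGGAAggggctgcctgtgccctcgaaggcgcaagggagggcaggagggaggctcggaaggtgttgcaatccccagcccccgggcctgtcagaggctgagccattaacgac
ITGAM: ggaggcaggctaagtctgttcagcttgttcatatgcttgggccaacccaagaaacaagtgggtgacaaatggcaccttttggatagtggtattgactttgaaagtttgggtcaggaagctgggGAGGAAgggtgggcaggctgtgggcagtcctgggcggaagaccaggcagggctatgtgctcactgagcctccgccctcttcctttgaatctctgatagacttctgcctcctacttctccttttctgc
GAGGAA or TTCCTC stood in 6 of the 10 entries, each from a different gene, and in 23.6% of all 35116 promoter entries of this length. The HindIII word stood in 1 of the 10, for CSF3R, and in 5.02% of all entries. A match is a description of letters, and bins of 500 kb do not resolve promoters.

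Most of the marker loci lay in active surroundings before treatment. The A share is the percentage of a bin's contacts with A or B bins of other chromosomes that were with A bins; A and B bins are those beyond 0.5 SD in the summed matrix. It exceeded the 75th percentile of all bins, 49.5%, in 7 of 9 loci in untreated cells, against 25.0% of all bins. The median was 58.6% over the loci and 44.0% over all bins. CD68 (64.0%, 61.4 to 66.5), ITGB2 (63.7%, 61.9 to 65.6) and CSF3R (62.5%, 60.3 to 64.6) were highest, with overlapping intervals. They were followed by ITGAM/ITGAX (59.8%), CD163 (58.6%), FPR1 (54.7%) and CSF1R (53.7%), where neighbours in this order also overlapped. CD38 (49.3%, 47.1 to 51.5) and CD14 (45.2%, 42.9 to 47.6) were lowest, and overlapped each other. Coverage, the number of contacts of a bin, was above that of the median bin in 8 of 9 loci, against 50.0% of all bins, and CD14 was the exception at 0.98 times the median.

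**Figure D1:**
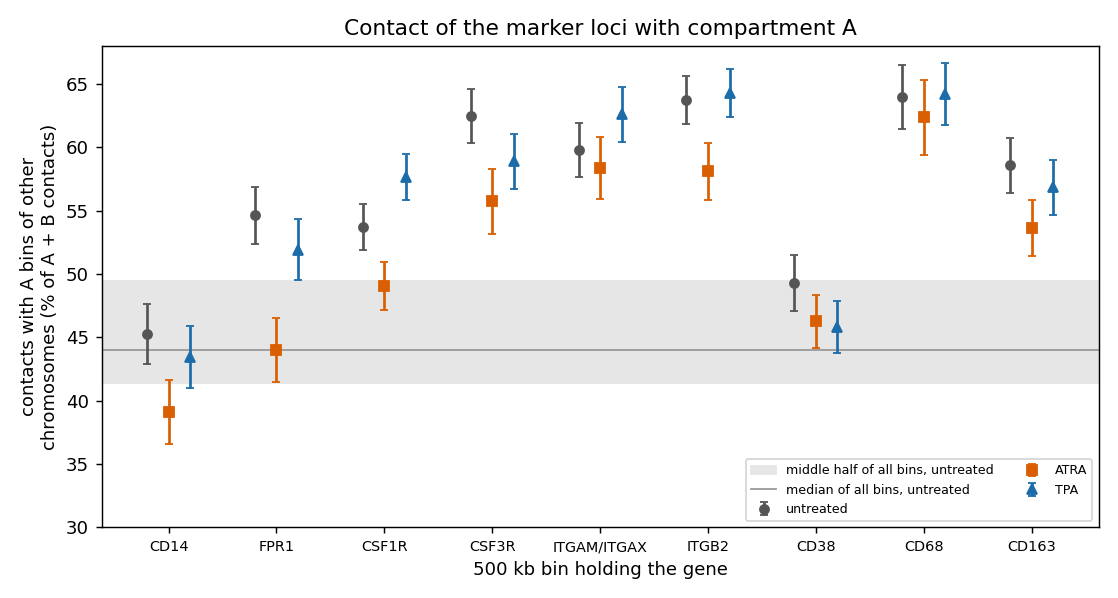
Percentage of contacts with A bins (y axis) for each locus (x axis) in untreated cells (circles), ATRA (squares) and TPA (triangles); bars are 95% exact binomial intervals for counting error and the grey band spans the 25th to 75th percentile of all bins in untreated cells. The FPR1 value in ATRA, 44.0%, lies well below its untreated 54.7%, and CSF1R is higher in TPA than in ATRA.

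All 9 loci had a lower A share in ATRA than in untreated cells, against 81.1% of all bins. The share was lower by more than 5 percentage points in CD14, FPR1, CSF3R and ITGB2, 4 of 9 loci, against 17.7% of all bins. With A and B bins split at 0 instead of 0.5 SD, ITGB2 (-4.83 points) and CSF3R (-4.55 points) no longer passed, leaving 2 loci against 11.1% of bins. Among bins that began above the 75th percentile, 44.5% were lower by that much. No locus was higher by 5 points, as in 0.107% of bins. In TPA no locus passed 5 points in either direction (8.54% of bins were lower and 3.73% higher), and 5 of 9 were lower at all, against 51.9% of bins. The median difference over the loci was -4.95 points in ATRA and -1.75 in TPA, and over all bins -2.31 and -0.14.

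The largest ATRA difference in A share among the 9 loci was at FPR1, with an interval that overlapped those of CD14 and other loci. FPR1 encodes the receptor for bacterial formyl peptides that guides neutrophils, on chromosome 19. Its bin had an A share of 54.7% in untreated cells, 44.0% with ATRA and 51.9% with TPA. The ATRA difference was -10.7 points (-14.0 to -7.30), at the 0.799th percentile of all bins, and the TPA difference was -2.74 points (-6.01 to 0.54). The change ran across the whole window. In ATRA all 11 bins were lower by more than 5 points, with a median of -10.7, and in TPA 8 of 11 were. Over the bins of chromosome 19 the median was -7.01 points (quartiles -10.8 and -5.08) in ATRA and -4.29 in TPA, so in ATRA the locus lay near the lower quartile of its own chromosome. Contacts of FPR1 with the small gene-rich chromosomes 17, 19, 20 and 22 outside its own made up 12.7% of its contacts with other chromosomes in untreated cells, 7.42% with ATRA and 10.6% with TPA. In ATRA this share was also lower beyond counting error at ITGAM/ITGAX (-4.45 points), ITGB2 (-3.86), CD68 (-3.41), CD163 (-3.26) and CSF3R (-3.21). At CD14, CSF1R and CD38 it was not. The TPA difference was -2.03 points at FPR1 (-3.87 to -0.18). It was -4.93 at CD68, -2.58 at ITGAM/ITGAX and -2.14 at ITGB2, with intervals that overlapped that of FPR1. CSF1R (1.76) and CD38 (2.11) were higher in TPA. How many of all bins changed in this share was not computed, so these differences are not read as particular to the loci.

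CD14, the co-receptor for bacterial lipopolysaccharide, had an untreated A share near the median of all bins (44.0%), and a lower one in ATRA. Its A share was 45.2% in untreated cells, 39.1% with ATRA and 43.4% with TPA. The ATRA difference was -6.16 points (-9.61 to -2.68). The TPA difference, -1.81 points (-5.19 to 1.57), was within counting error of 0. Its compartment score, the leading pattern of contacts within the chromosome in SD of that chromosome, was 0.16, -0.63 and -0.53. The side of the untreated score depended on the setting, with -0.57 by contacts between chromosomes and -1.28 without balancing. CD14 and the next bin formed a dip between more active neighbours in all 3 matrices.

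**Figure D2:**
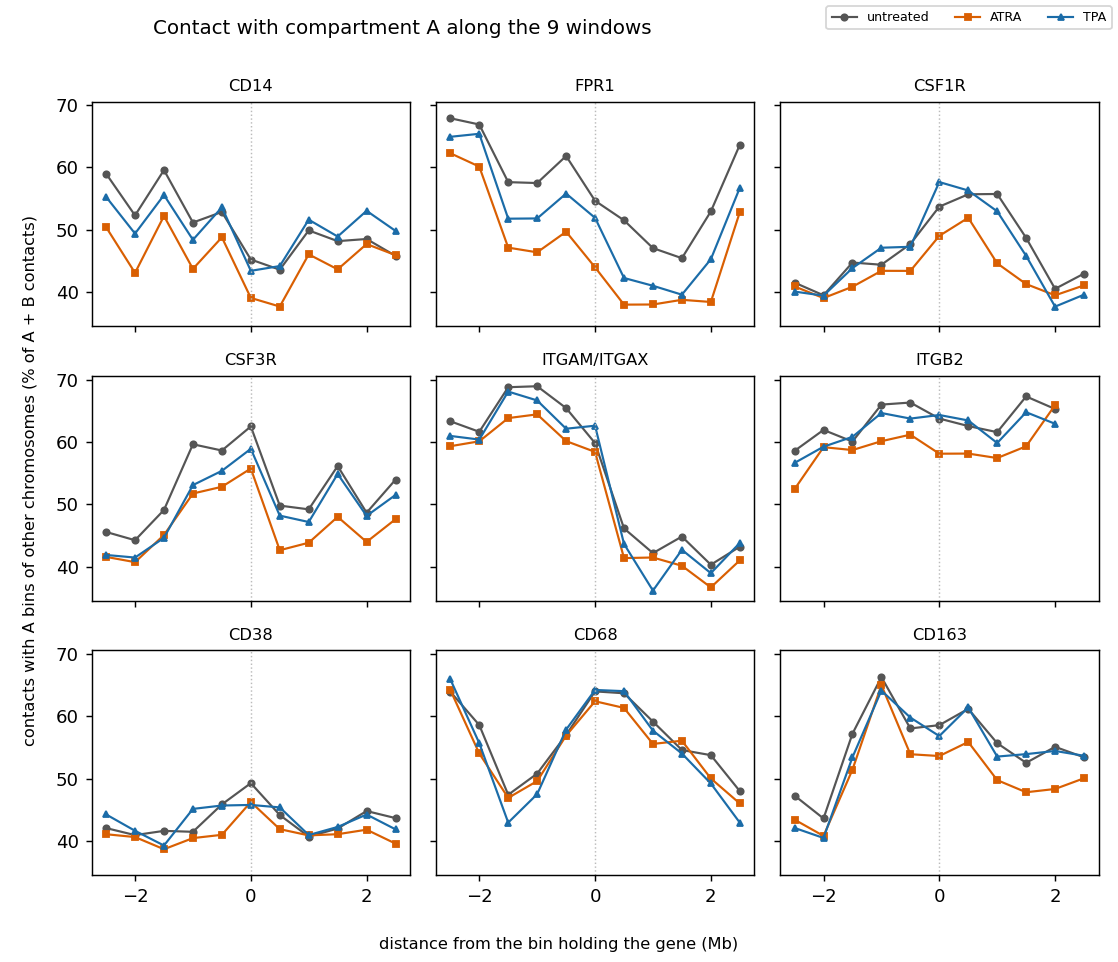
Percentage of contacts with A bins (y axis) by distance from the bin holding the gene in Mb (x axis), for the 9 windows in untreated cells (grey circles), ATRA (orange squares) and TPA (blue triangles). The ATRA line of FPR1 runs below the untreated line in all 11 bins, and ITGAM/ITGAX sits at a step, from 59.8% in its own bin to 46.1% in the next in untreated cells.

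The bins of the growth factor receptors measured opposite signs in TPA, but the medians of their windows were both negative. CSF1R, the receptor of macrophage colony-stimulating factor, had an A share of 53.7% in untreated cells, 49.0% with ATRA and 57.7% with TPA. The ATRA value differed from the untreated one by -4.68 points (-7.32 to -2.04), and the TPA value by 3.94 points (1.38 to 6.50), at the 92.4th percentile of all bins. TPA exceeded ATRA by 8.63 points (6.02 to 11.2). In the CSF1R window 8 of 11 bins were lower in TPA than in untreated cells, with a median of -0.89 points. CSF3R, the receptor of granulocyte colony-stimulating factor, measured 62.5%, 55.7% and 58.9%. Its differences were -6.75 points (-10.1 to -3.42) in ATRA and -3.59 (-6.61 to -0.56) in TPA. TPA and ATRA differed by 3.16 points (-0.20 to 6.52). In the CSF3R window 11 of 11 bins were lower in TPA than in untreated cells, with a median of -2.78 points. In all, 3 of 9 loci, CSF1R, FPR1 (7.93 points) and ITGB2 (6.20 points), were higher in TPA than in ATRA by more than 5 points, against 13.8% of all bins, and none was lower by that much (0.320%). Leaving out the chromosomes that are joined to the CSF1R window (7 and 16) is one of the alternatives, and its A share stayed lower in ATRA and higher in TPA under all 3 alternatives, at -5.71 to -4.82 and 2.42 to 5.13 points.

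The integrin loci kept a high A share in TPA. ITGAM and ITGAX encode the alpha chains CD11b and CD11c, and ITGB2 the beta chain CD18 with which both pair. The ITGAM/ITGAX bin measured 59.8%, 58.4% and 62.6%, and neither difference exceeded counting error (-1.41 points, -4.68 to 1.85, in ATRA and 2.79, -0.26 to 5.83, in TPA). ITGB2 measured 63.7%, 58.1% and 64.3%, with a difference of -5.63 points (-8.56 to -2.70) in ATRA and 0.57 (-2.10 to 3.24) in TPA. By A share, the ITGAM/ITGAX bin lies at a step. In untreated cells the 5 bins before it had A shares of 61.6% to 68.9%, and the 5 after it 40.3% to 46.1%. The bins after it had low coverage, with a mean of 0.51 times the median bin, against 0.98 before. By compartment score the window did not cross between A and B in untreated cells or ATRA, where 0 of 11 bins were above 0. In TPA 3 were.

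CD38, an ectoenzyme that consumes NAD, CD68, a lysosomal protein of macrophages, and CD163, the haemoglobin scavenger receptor, showed no difference past 5 points. CD38 measured 49.3%, 46.3% and 45.8%. Its TPA difference of -3.49 points (-6.49 to -0.48) exceeded counting error, and its ATRA difference of -3.02 (-6.06 to 0.02) did not. Over the bins of chromosome 4 the median was 1.06 points in TPA and -1.72 in ATRA. CD68 measured 64.0%, 62.4% and 64.2%. CD163 measured 58.6%, 53.6% and 56.8%, and its ATRA difference of -4.95 points (-8.04 to -1.85) was just inside the limit. In the CD38 window the gene's bin had the highest A share of its 11 bins in untreated cells and in ATRA; in TPA it did not stand apart from the preceding bin (45.7%).

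By the score of the whole chromosome, no locus switched compartment. A switch is a score past 0.5 SD in A before treatment and past -0.5 SD in B after it, or the reverse. Switches from A to B were found in 0.426% of all bins in ATRA and 2.61% in TPA, and from B to A in 0.178% and 0.160%. In the windows, 1 bin near CSF1R went from A to B by score and 1 near ITGAM/ITGAX from B to A, both in TPA. The A share of the bin near ITGAM/ITGAX was 68.9% in untreated cells and 66.6% with TPA, against the direction of its score. That of the bin near CSF1R was 40.5% and 37.7%. CSF1R (2.04 in untreated cells, 1.96 with ATRA, 2.09 with TPA), CSF3R (1.72, 2.15, 1.52), CD38 (1.52, 1.75, 1.10) and CD163 (1.32, 1.71, 1.56) scored above 1 in each matrix. Among these loci, the side depended on the setting for CSF1R, which scored -3.03, -2.92 and -2.15 without balancing. The same held for CD38, which scored -0.32, 0.038 and -0.088 by contacts between chromosomes. A change of more than 0.5 SD was seen downward in 3 of 9 loci in ATRA (CD14, ITGB2 and CD68; 13.7% of all bins) and in 2 of 9 in TPA (CD14 and CD68; 26.1%). Upward it was seen in none in ATRA (10.0%) and in 2 of 9 in TPA (ITGAM/ITGAX and ITGB2; 8.77%). The score and the A share disagreed at ITGAM/ITGAX and FPR1. ITGAM/ITGAX scored -1.25, on the B side, with an A share of 59.8%. FPR1 scored -0.33, -0.69 and -0.78 with an untreated A share of 54.7%. Per chromosome arm it scored 1.90, -0.92 and -0.18, which meets the rule for a switch from A to B in ATRA. How many of all bins switch per arm was not computed. On chromosome 16 the score correlated with A share across 158 bins at only 0.54 in untreated cells, and on chromosome 21, home of ITGB2, at 0.096 across 70 bins in ATRA. By the leading pattern of contacts between chromosomes, ITGAM/ITGAX scored 1.62, 1.64 and 2.07 and ITGB2 3.15, 3.23 and 3.30. The direction of the score change turned under some settings for CD14, ITGB2 and CD68 in ATRA, and for CD14, ITGAM/ITGAX, ITGB2 and CD68 in TPA, so these changes are not read as moves.

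**Figure D3:**
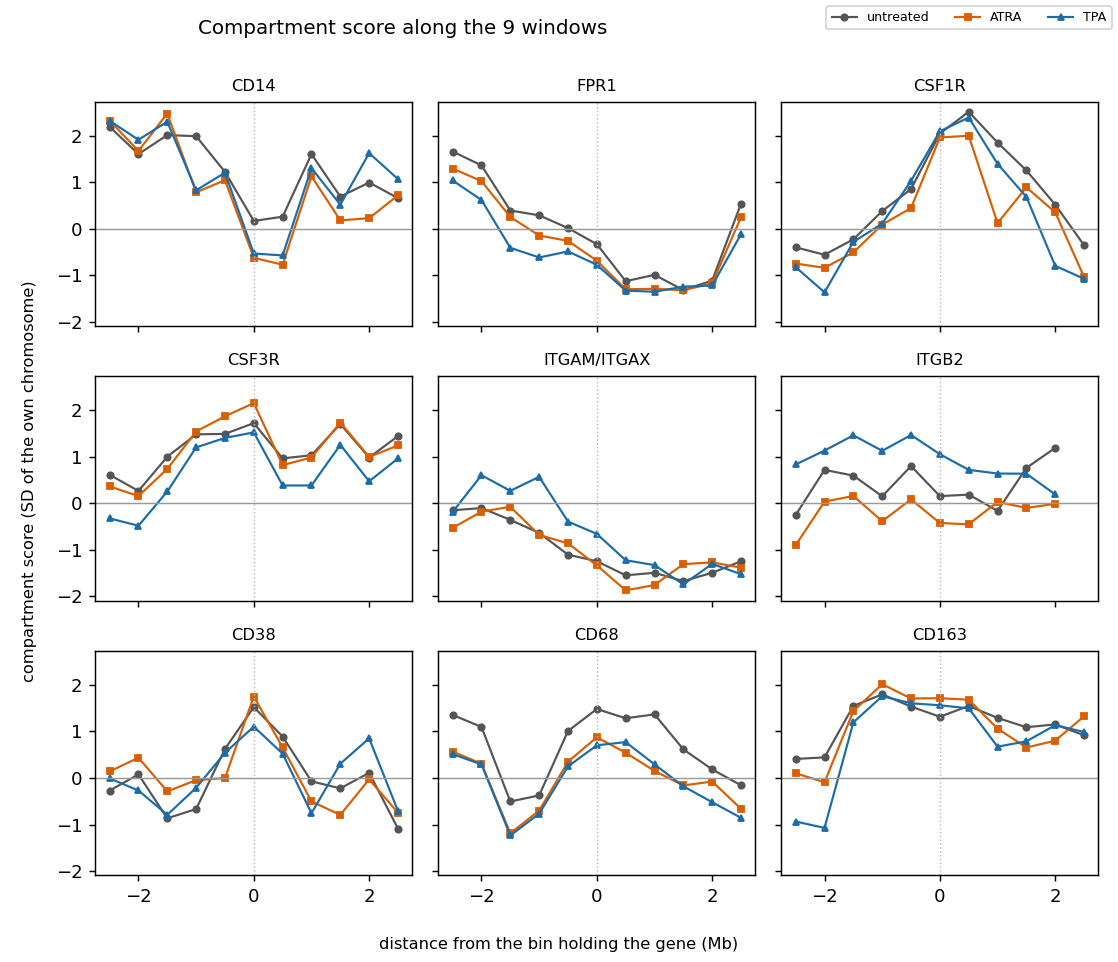
Compartment score in SD of the own chromosome (y axis) by distance from the bin holding the gene in Mb (x axis) in untreated cells (grey circles), ATRA (orange squares) and TPA (blue triangles). CSF1R, CSF3R, CD38 and CD163 lie above 1 in every matrix, and the ITGAM/ITGAX bin lies below 0 in every matrix although its A share was 58.4% or more.

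Coverage relative to the total was lower in ATRA at 7 of 9 loci, against 31.3% of all bins. The difference was largest at 5 of these loci. ITGAM/ITGAX had 4281 contacts in untreated cells, 2890 with ATRA and 3614 with TPA. CD68 had 3714, 2452 and 3151, and ITGB2 5087, 3467 and 4431. CSF3R had 5621, 3896 and 4827, and FPR1 4806, 3502 and 4012. Relative to the total of each matrix, the log2 ratio of ATRA to untreated was -0.46 for CD68 (-0.53 to -0.38), -0.42 for ITGAM/ITGAX, -0.41 for ITGB2, -0.39 for CSF3R and -0.31 for FPR1. Past a log2 of -0.25 these were 5 of 9 loci, against 8.37% of all bins, and 33.1% of the bins above the 75th percentile of A share. In TPA the same 5 loci measured -0.23 to -0.17, and no locus passed -0.25 (0.337% of bins). With contacts between chromosomes alone, the TPA values were smaller at ITGAM/ITGAX (-0.072), ITGB2 (-0.093) and CSF3R (-0.098), and that of CD68 turned to 0.10, while FPR1 measured -0.19. None was higher past 0.25 in either (3.27% of bins in ATRA and 0.444% in TPA). CD14, CSF1R, CD38 and CD163 were between -0.18 and 0.06 in ATRA and between -0.09 and 0.01 in TPA. In ATRA the intervals of CD14 (-0.25 to -0.11) and CSF1R (-0.17 to -0.066) lay below 0. In TPA 8 of 9 loci were lower at all, against 39.7% of bins. On chromosome 19 the median bin was at -0.37 in ATRA, below FPR1, while on chromosome 21 it was at 0.08, above ITGB2.

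**Figure D4:**
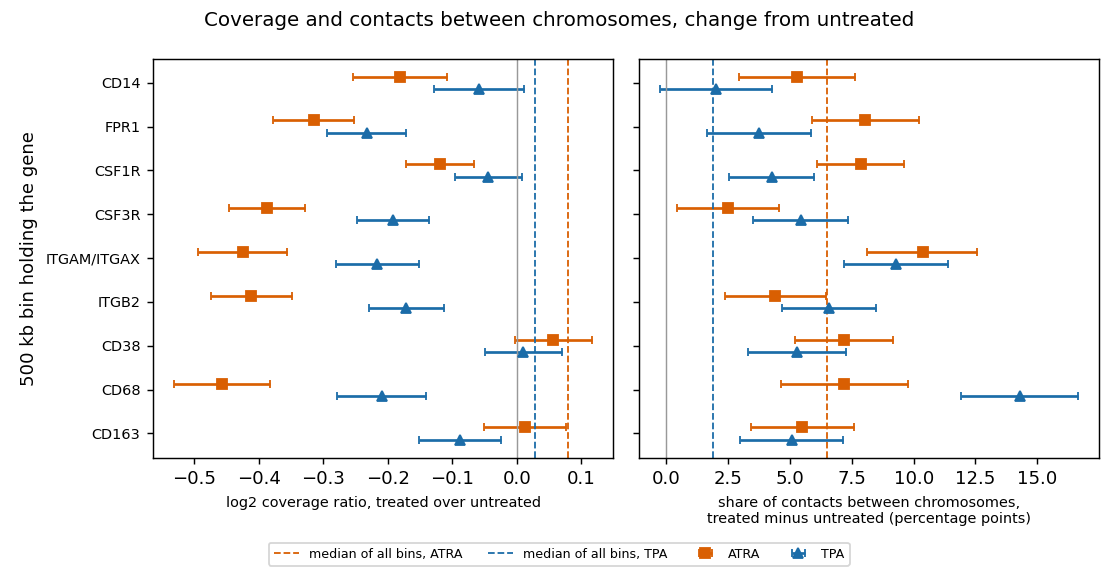
Left, log2 ratio of coverage to untreated; right, difference in the share of contacts with other chromosomes in percentage points; loci on the y axis, ATRA as squares and TPA as triangles, with 95% counting intervals and dashed lines at the medians of all bins. CD68, ITGAM/ITGAX, ITGB2, CSF3R and FPR1 lie lowest in coverage in ATRA, and CD68 in TPA lies highest on the right, at 14.3 points.

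Contacts at 0.5 to 2 Mb, relative to the total, were below the untreated level in 9 of 9 loci in both treated matrices, as in nearly all bins (99.4% in ATRA and 98.2% in TPA). The median ratio over the loci was 0.59 in ATRA, against 0.67 over all bins, lowest at ITGAM/ITGAX (0.48) and highest at CD163 (0.79). In TPA it was 0.67, against 0.75 over all bins, lowest at FPR1 (0.53) and highest at CD38 (0.88). At more than 2 and up to 10 Mb the median ratio was 0.75 in ATRA and 0.92 in TPA, against 0.90 and 1.12 over all bins.

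Relative to other pairs at the same distance, the CSF1R and ITGB2 bins had many near contacts in all 3 matrices. Contacts of the CSF1R bin with the 5 bins on either side were 1088 in untreated cells, 698 with ATRA and 874 with TPA, or 3.02, 3.18 and 3.15 times the mean at those distances on the chromosome. Those of ITGB2 were 1314, 745 and 915, or 2.56, 2.21 and 2.42 times. Both exceeded the 95th percentile of all bins, which was 1.99, 1.96 and 1.97. These ratios are not corrected for coverage, which was high at both loci and in the bins beside them. In untreated cells it was 1.79 times the median bin at CSF1R, with 1.77 and 2.00 beside it. At ITGB2 it was 1.46 times, with 1.63 and 1.62 beside it. Whether the near contacts exceed what coverage gives was not tested. The CSF1R bin met the following bin 422, 265 and 391 times and the preceding bin 303, 164 and 181 times.

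On this scale, near contacts were lower past a log2 of -0.25 at CD14 and ITGAM/ITGAX in ATRA, 2 of 9 loci against 9.52% of bins. In TPA they were lower at ITGAM/ITGAX, CD68, FPR1 and CSF3R, 4 of 9 against 8.53%. CSF3R had 1122 such contacts in untreated cells, 604 with ATRA and 624 with TPA, or 1.87, 1.64 and 1.42 times the mean, a log2 ratio of -0.40 in TPA (-0.54 to -0.26). The ITGAM/ITGAX bin had 667, 292 and 378, or 1.09, 0.83 and 0.86 times. Its contacts with the 5 bins after it, across the step in A share, were 214, 70 and 76, and with the 5 bins before it 453, 222 and 302. None was higher past 0.25, against 10.2% of bins in ATRA and 9.15% in TPA. With balanced contacts no locus was lower past the limit in ATRA (17.1% of bins), and in TPA ITGAM/ITGAX alone was (-0.28; 8.44% of bins). With 3 bins on either side, ITGAM/ITGAX and CSF3R passed in TPA (11.1% of bins).

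**Figure D5:**
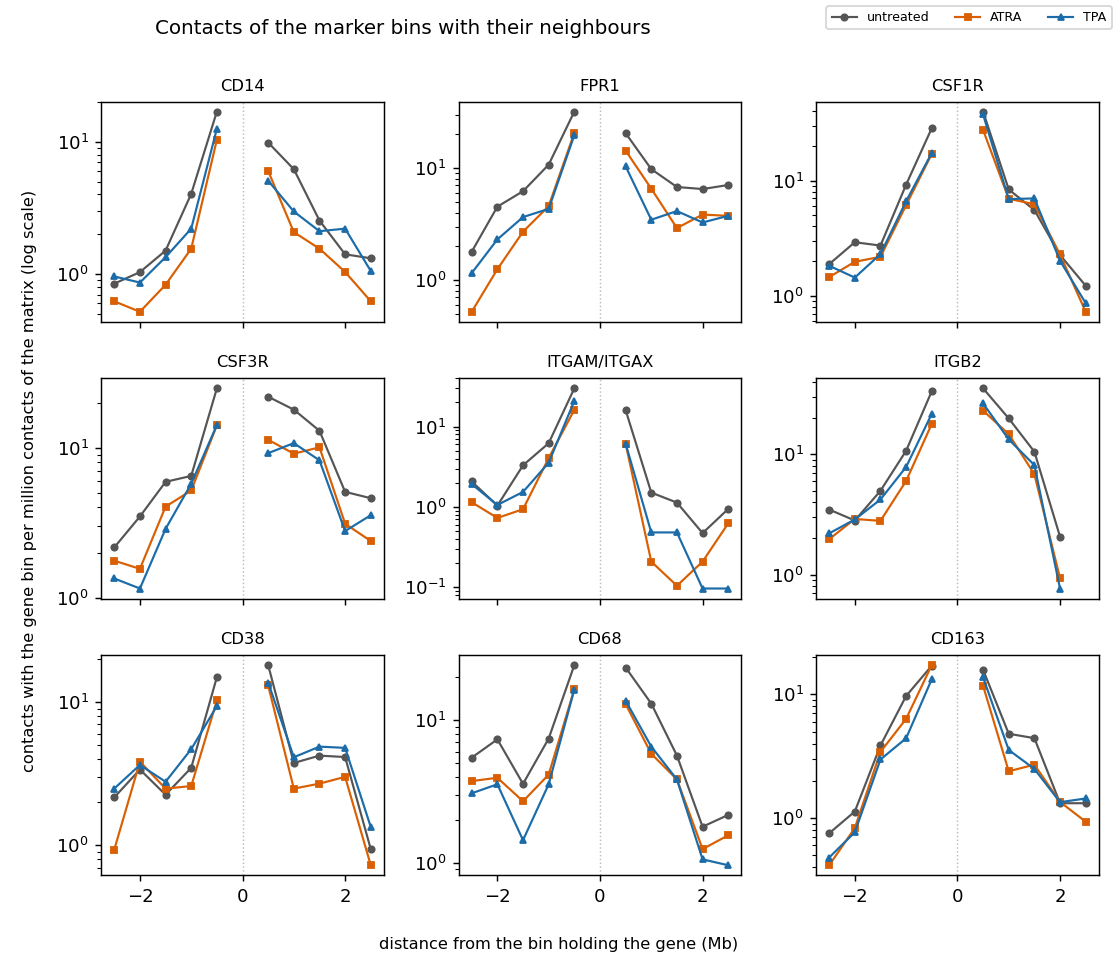
Contacts of each gene's bin with its neighbours for every 1000000 contacts of the matrix (y axis, log scale, with its own range in each panel) by distance in Mb (x axis), in untreated cells (grey circles), ATRA (orange squares) and TPA (blue triangles). Points at 0 contacts would not be drawn; the ITGAM/ITGAX bin has few contacts beyond 0.5 Mb after it, down to 1 in a treated matrix.

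The share of contacts made with other chromosomes was higher past 5 points in 7 of 9 loci in ATRA, against 76.2% of all bins. In TPA it was higher in 6 of 9, against 11.9% of all bins and 34.3% of bins above the 75th percentile of A share. CD68 made 48.1% of its contacts with other chromosomes in untreated cells, 55.3% with ATRA and 62.4% with TPA. The TPA difference of 14.3 points (11.9 to 16.6) was at the 99.9th percentile of all bins. Other bins of chromosome 17 had a median of 5.35 points in TPA. ITGAM/ITGAX measured 60.7%, 71.1% and 70.0%, and its differences of 10.4 and 9.30 points were at the 96.6th and 98.8th percentile. None was lower past 5 points, as in 0.00% of bins in ATRA and 0.107% in TPA. Without contacts inside the bin, 3 rather than 6 loci passed the limit in TPA, against 9.11% of all bins.

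Partners on another chromosome with at least 10 times the contacts that coverage predicts, and at least 20 contacts, in the 3 matrices summed were found for 3 of 9 loci, CD14, CSF1R and ITGAM/ITGAX, against 8.10% of all bins. The CD14 window met chromosome 7 at 126.5 to 131 Mb in 568 contacts in untreated cells, 427 with ATRA and 511 with TPA, which was 11.5, 9.59 and 10.1 times the expectation. The CD14 bin itself had 62, 45 and 60 of these contacts (14.4, 12.7 and 14.3 times). The CSF1R bin, 9 Mb from CD14 on chromosome 5, met a part of that stretch, at 127.5 to 130 Mb, in 64, 37 and 40 contacts (14.7, 9.92 and 9.06 times), and its whole window did so in 325, 199 and 284 (8.25, 5.75 and 7.28 times). On chromosome 16 at 83.5 to 86.5 Mb the CSF1R bin had 61, 44 and 65 contacts (10.0, 9.28 and 10.9 times). The CD14 and CSF1R bins with their nearest neighbours met each other in 99, 78 and 99 contacts, 3.47, 2.98 and 2.66 times the mean at that distance. The ITGAM/ITGAX bin met chromosome 21 at 33 to 35 Mb in 34, 24 and 30 contacts (10.3, 9.63 and 9.37 times) and chromosome 17 at 74 to 76.5 Mb in 39, 23 and 24 (10.1, 9.52 and 6.60 times). The last value has a counting interval of 4.23 to 9.82. The ITGAM/ITGAX window also met chromosome 15 at 40.5 to 42 Mb in 117, 65 and 76 contacts (8.49, 6.73 and 5.52 times) and the first bin of chromosome 6 in 50, 35 and 36 (7.90, 6.42 and 5.60 times). Coverage stepped up within the CD14 window, from a mean of 0.82 times the median bin before the gene to 1.43 after it in untreated cells. No such partner was found for the windows of CD38, CD68, FPR1, CSF3R or CD163, and that of ITGB2 held 4 such pairs, none in the gene's bin. Partners are called joined by this rule on contacts alone, and breakpoints were not examined.

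Over 35 pairs of marker loci on different chromosomes, each taken with the nearest bins, there were 222 contacts in untreated cells, 153 with ATRA and 241 with TPA. These were 1.14 (0.992 to 1.30), 1.03 (0.873 to 1.21) and 1.29 (1.13 to 1.46) times the expectation from coverage, and only the TPA interval lay above 1. The TPA and untreated intervals overlapped, and pairs of other bins with a like A share were not measured. Single bin pairs turned the untreated value to 0.82. The loci differed among themselves. ITGB2 with the other loci was at 1.61 (1.29 to 1.97), 1.16 and 1.64 times, and CD68 at 1.49, 1.21 and 1.78. CSF1R was at 0.66 (0.459 to 0.917), 0.94 and 1.12 times, CD14 at 0.78, 0.79 and 0.74, and CD38 at 0.78, 1.03 and 1.09. Without ITGB2 the other 27 pairs held 132, 109 and 156 contacts, at 0.95 (0.793 to 1.12), 0.99 (0.809 to 1.19) and 1.15 (0.977 to 1.35) times, so that every interval held 1.

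By the profile of contacts with 21 other chromosomes in the summed matrix, the bin most like CD68 was chromosome 21 at 47 to 47.5 Mb (r = 0.976), 2 bins from ITGB2. The bin most like ITGB2 was chromosome 9 at 138.5 to 139 Mb (r = 0.976). For CD14 and CSF1R it lay on chromosome 16, at 82 to 82.5 Mb (r = 0.946) and 83.5 to 84 Mb (r = 0.92). The bin at 83.5 Mb is part of the stretch of chromosome 16 listed above as joined to the CSF1R window. In the profiles of both loci chromosome 7, which holds joined partners of both windows, was highest. It stood at 2.93 times the expectation for CD14 and 2.35 times for CSF1R. How far these r values rest on the joined chromosome was not tested. These correlations describe 21 points that share the depth of each bin, and carry no test.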

How the data were processed

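Hi-C contacts came from HL60 cells in 3 conditions. Bowtie alignments were filtered by HiCUP and binned with HOMER 4.7 on hg19, per the series' design text and the submitters' processing notes. The deposited matrices hold raw counts of contacts for 6203 bins, each 500 kb wide, which are whole numbers with no normalization, per the file headers. The 2 untreated and 2 TPA libraries were merged before deposit, per the labels. Values on the diagonal were divided by 2. A bin was kept where its coverage reached 0.2 times the median in each matrix. Scores are the first eigenvector of the balanced (60 iterations) contact correlation, signed by contact with chromosome 19. Chromosome 19 itself was signed by contact with chromosomes 17 and 22. Counts carry exact Poisson and shares exact binomial intervals at 95%, which do not cover PCR duplicates. Python 3.11.15, numpy 2.4.6 and scipy 1.17.1 were used, and the calculations were tested on simulated data. All 10 genes are named; other bins are named as the 1 most alike and the joined partners with most contacts. The members and lists were chosen with earlier results of these data known. A list of other myeloid receptor genes was not used here, since no hg19 annotation was given.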

Additional observations from a re-analysis of the deposited data

How the results depend on the processing

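Under alternative settings, 39 counts of loci and values stayed close to those reported and 17 moved. Scaled to the median bin, coverage was lower past the limit in 1 locus in TPA (0.888% of all bins). For the compartment score, the eigenvector between chromosomes gave 1 fall in ATRA (5.72%) and 1 fall (12.4%) and 1 rise (13.8%) in TPA. Leaving out bins under 0.5 times the median coverage gave 1 fall (14.4%) and 1 rise (9.53%) in ATRA and 1 rise in TPA (9.18%), no balancing gave 2 rises in ATRA (24.7%), and eigenvectors per arm 1 rise in TPA (9.24%). Score changes reversed for CD14 in ATRA without balancing (1.49) and with the higher coverage limit (0.32), and in TPA without balancing (0.55) and between chromosomes (0.12). ITGB2 reversed in ATRA between chromosomes (0.083), with the higher limit (0.50) and with the eigenvector matched to the summed matrix (0.48, added after seeing the data), and in TPA without balancing (-0.52). CD68 reversed in ATRA between chromosomes (0.10) and in TPA per arm (0.050), and ITGAM/ITGAX in TPA per arm (-0.69). With A and B split at 0, 2 rather than 4 loci had a lower A share in ATRA (11.1%), without ITGB2 and CSF3R. With 3 bins on either side, near contacts were higher in 1 locus in ATRA (12.5%) and lower in 2 in TPA (11.1%). With balanced contacts they were lower in 0 (17.1%) and higher in 1 (10.0%) in ATRA, and lower in 1 in TPA (8.44%). Leaving out contacts within the bin gave 3 loci with a higher share between chromosomes in TPA (9.11%). Single bin pairs put contacts between loci in untreated cells at 0.82 times the expectation. Per arm, FPR1 met the rule for a switch from A to B in ATRA (1.90 to -0.92), while by the whole-chromosome score no locus switched. The causes were not tested. No paired analysis was possible because the untreated and TPA libraries are merged in their matrices. With 1 matrix per condition, no replicate could be left out.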
